A study of Mus musculus with 12 samples.

Results

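The genes described here are 8 enzymes and partners that write, maintain or remove DNA methylation in the mouse: Dnmt1, Uhrf1, Dnmt3a, Dnmt3b, Dnmt3l, Tet1, Tet2 and Tet3. Transcriptional regulatory elements (TREs) were taken from dREG, which learns from run-on data what initiation by RNA polymerase II looks like and returns peaks with a score and a p-value each. A peak belonged to these genes when it ended less than 1000 bp from a transcription start site (TSS) that GENCODE M21 annotates for any of them. This gave 17 peaks of 71107 in leptonema/zygonema, 21 of 68352 in pachynema and 10 of 38603 in diplonema. The 8 genes have 69 distinct annotated TSS positions, and the annotation holds 21938 protein-coding genes in all.

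Nascent transcription was measured by leChRO-seq, a run-on assay that labels RNA held by engaged RNA polymerases on isolated chromatin. Spermatocytes of adult wild-type mice were separated by size and density (STAPUT) into fractions enriched for leptonema/zygonema, pachynema and diplonema, successive substages of meiotic prophase I. There were 12 libraries, 4 for each substage, all of wild-type genotype, and the fractions were enriched rather than pure. Libraries were pooled within a substage before peaks were called, so every position and score below is 1 value with no replicate spread, and no difference between substages was tested. Scores are not scaled between the lists and the diplonema list is the shortest, so a score is set here against other genes of the same list by its percentile. The lists hold no read counts, and depth was not compared between substages.

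DNMT1 copies methylation onto new DNA strands at replication, and UHRF1 recruits it to half-methylated CpG sites. DNMT3A and DNMT3B place methylation on unmethylated DNA, and DNMT3L, which has no catalytic activity of its own, stimulates them in germ cells. TET1, TET2 and TET3 oxidise 5-methylcytosine, which opens the way to its removal. Several of these genes are known to use alternative promoters, with different first exons in germ cells and somatic cells, and the annotated starts were therefore followed one by one.

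Sequences are shown for selected sites. Of the 69 annotated starts, 15 lay inside a peak in every substage, and these belong to Dnmt1, Dnmt3b, Uhrf1 and Tet2. Only the Uhrf1-202 start is shown from these, and its sequence does not stand for the others. The sites shown are, in order, that Uhrf1 start, internal starts of Dnmt3l, Dnmt3a and Tet3, and a Tet1 intron. Calls at the internal starts differed between substages, and the Tet1 intron held a peak while all Tet1 starts lacked one. The first 4 are the 250 bases that end just before the start named, read 5′ to 3′ on the strand of the gene, and the last is the 300 bases in the middle of the stretch shared by the 3 Tet1 peaks. Uhrf1, Dnmt3l and Tet3 come from RefSeq promoter windows and Dnmt3a and Tet1 from the genome (GRCm38.p6, the assembly of mm10). Capitals mark every match, on either strand, to the TATA box, spelled TATAAA, the CCAAT box, spelled as its name, the SP/KLF box, spelled GGGCGG, an E2F motif (TTTCCCGC, TTTCGCGC, TTTGCCGC or TTTGGCGC), a CRE (TGACGTCA) or a MYB motif (CNGTTA, with its last base also allowed to be G), and no matches overlapped in these stretches.
Uhrf1, before the Uhrf1-202 start, chr17:56304063-56304312, plus strand: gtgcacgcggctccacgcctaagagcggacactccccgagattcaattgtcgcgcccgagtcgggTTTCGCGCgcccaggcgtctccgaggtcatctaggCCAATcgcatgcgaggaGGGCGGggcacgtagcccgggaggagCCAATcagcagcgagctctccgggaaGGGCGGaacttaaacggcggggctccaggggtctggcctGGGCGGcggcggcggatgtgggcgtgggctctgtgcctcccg
Dnmt3l, before the Dnmt3l-203 start, chr10:78055085-78055334, plus strand: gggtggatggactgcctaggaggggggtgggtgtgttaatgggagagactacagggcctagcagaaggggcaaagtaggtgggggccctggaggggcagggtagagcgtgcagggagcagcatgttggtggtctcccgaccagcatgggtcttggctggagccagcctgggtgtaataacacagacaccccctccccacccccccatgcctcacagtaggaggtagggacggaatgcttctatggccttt
Dnmt3a, before the Dnmt3a-209 start, chr12:3894574-3894823, plus strand: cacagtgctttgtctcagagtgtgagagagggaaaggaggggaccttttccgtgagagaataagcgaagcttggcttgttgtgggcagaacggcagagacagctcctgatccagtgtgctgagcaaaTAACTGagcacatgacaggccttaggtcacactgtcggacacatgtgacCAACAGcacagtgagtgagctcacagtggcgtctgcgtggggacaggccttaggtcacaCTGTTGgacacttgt
Tet3, before the Tet3-201 start, chr6:83441679-83441928, minus strand: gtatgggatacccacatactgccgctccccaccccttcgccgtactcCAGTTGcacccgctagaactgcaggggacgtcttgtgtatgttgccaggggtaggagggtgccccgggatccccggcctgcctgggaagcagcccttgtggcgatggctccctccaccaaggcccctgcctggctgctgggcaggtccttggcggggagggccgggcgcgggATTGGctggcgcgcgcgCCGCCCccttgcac
Tet1, inside intron 6, chr10:62830836-62831135, minus strand: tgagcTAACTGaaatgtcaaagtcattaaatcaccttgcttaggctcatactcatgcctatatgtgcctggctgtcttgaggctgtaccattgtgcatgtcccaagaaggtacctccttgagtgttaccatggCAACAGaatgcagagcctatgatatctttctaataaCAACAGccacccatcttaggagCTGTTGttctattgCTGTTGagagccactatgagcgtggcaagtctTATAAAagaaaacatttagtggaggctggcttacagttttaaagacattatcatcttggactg

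The Uhrf1 stretch was rich in CpG, with a GC content of 69.6%, 30 CpG dinucleotides and an observed to expected CpG ratio of 1.0. It held 1 E2F match, 3 SP/KLF matches and 2 CCAAT matches. Over all 32851 RefSeq windows of 250 bases, 1.86% held an E2F match, 32.7% an SP/KLF match and 33.8% a CCAAT match, and the median CpG ratio was 0.373. The Tet3 stretch had the same GC content, 69.6%, with 17 CpG dinucleotides, a CpG ratio of 0.562 and 1 match each to the SP/KLF, CCAAT and MYB motifs. The Dnmt3l stretch had a GC content of 61.6% but only 3 CpG dinucleotides, a CpG ratio of 0.135, and no match to any of these motifs. The Dnmt3a stretch had a GC content of 53.6%, a CpG ratio of 0.347 and 3 MYB matches, where 43.1% of RefSeq windows held at least 1. The Tet1 stretch was poorest in CpG, with 1 CpG dinucleotide in 300 bases, a ratio of 0.0744, 5 MYB matches and 1 TATA match. Among the middle 300 bases of all leptonema/zygonema peaks, 54.0% held a MYB match and 12.5% a TATA match, and the median CpG ratio was 0.33. Each match is a run of letters and not a measured binding site.

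At least 1 proximal peak was called for 7 of the 8 genes in each substage, and Tet1 was the gene without one in all 3. Among all protein-coding genes, 60.2% had a proximal peak in leptonema/zygonema, 60.5% in pachynema, 51.6% in diplonema and 49.5% in all 3. At a score of at least 0.5, or a dREG p-value of at most 0.01, Dnmt3a and Dnmt3l lost their diplonema call. This left 5 of the 8 genes with a proximal peak there. Of the 69 annotated starts, 23 lay inside a peak in leptonema/zygonema and 27 in pachynema, against 18 in diplonema, and 15 did so in all 3. For the starts of all protein-coding genes the shares inside a peak were 41.4%, 41.6% and 34.8%. All 27 starts that were ever covered were covered in pachynema. After overlapping or touching peaks of different substages were joined, the 7 genes had 14 TREs, of which 6 were called in every substage, 3 in leptonema/zygonema and pachynema, 1 in pachynema and diplonema, 2 in pachynema alone, 1 in leptonema/zygonema alone and 1 in diplonema alone. The 4 TREs called in a single substage held no annotated start of these genes. Shares of these patterns over the TREs of all genes are not given here, so the TRE counts describe the listed genes alone.

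The best proximal score of each gene was ranked among all protein-coding genes with a proximal peak in the same list, which were 13203 in leptonema/zygonema and 13272 in pachynema, against 11328 in diplonema. The median percentile of the 7 genes was 44.7, 40.8 and 43.7 in that order, a little under the middle of each list. The order from high to low was Uhrf1, Dnmt1, Dnmt3b, Dnmt3l, Tet2, Tet3 and Dnmt3a in leptonema/zygonema. It was Dnmt1, Uhrf1, Tet3, Dnmt3l, Dnmt3b, Dnmt3a and Tet2 in pachynema, and Tet2, Uhrf1, Dnmt3b, Dnmt1, Tet3, Dnmt3l and Dnmt3a in diplonema. Without replicate spread, no neighbours in these orders can be said to differ.

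**Figure D1:**
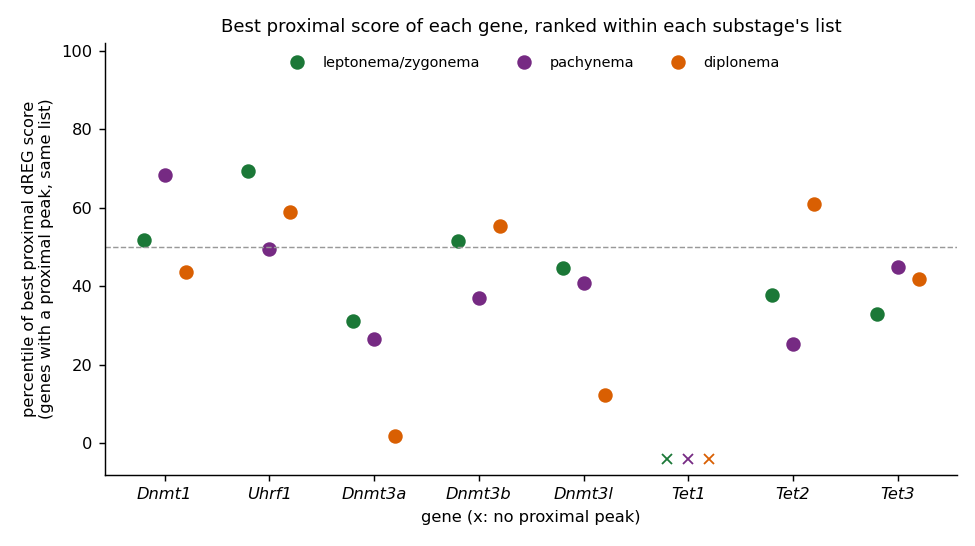
Percentile of the best proximal dREG score of each gene (vertical axis) among the protein-coding genes with a proximal peak in the same list, for leptonema/zygonema (green), pachynema (purple) and diplonema (orange); the dashed line is the middle of a list and a cross marks a gene with no proximal peak. Dnmt3a and Dnmt3l sit lowest in diplonema, at 1.85 and 12.3, Tet2 is highest there at 60.9, and Tet1 has no proximal peak in any list.

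The maintenance genes had at least 1 annotated start inside a peak in all 3 substages. Dnmt1 (ENSMUSG00000004099.16, chromosome 9, minus strand, 20907209 to 20959888) had a best score of 1.061 in leptonema/zygonema and 1.152 in pachynema, against 0.779 in diplonema. These stood at percentiles 51.8, 68.3 and 43.7 of their lists, so that Dnmt1 ranked highest of the 8 genes in pachynema. The peaks covered 4 of its 7 annotated starts in every substage: 20952979 (Dnmt1-201, which encodes the full protein of 1620 residues), 20952845, 20952623 (Dnmt1-203, 1501 residues) and 20952605 (Dnmt1-207, 1502 residues).

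The way these starts were divided between peaks differed. In leptonema/zygonema 1 peak from 20952301 to 20953120 held all 4, and in diplonema 1 peak from 20952241 to 20953090 did so. In pachynema the call was split: a peak from 20952651 to 20953220 (score 1.152) held the starts of Dnmt1-201 and Dnmt1-205, and an adjoining peak from 20952331 to 20952630 (score 0.771) held those of Dnmt1-203 and Dnmt1-207. Joined over the substages, these peaks form 1 TRE, and whether the split reflects separate promoters was not tested. Mouse Dnmt1 is known to use different first exons in oocytes, in somatic cells and in pachytene spermatocytes, but the annotation does not say which start belongs to which. The farthest upstream start, 20959888 (Dnmt1-202, 1501 residues, 6909 bp from that of Dnmt1-201), had no peak, and the nearest edge was 6768 bp away in leptonema/zygonema, 6668 bp in pachynema and 6798 bp in diplonema.

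Uhrf1 (ENSMUSG00000001228.14, chromosome 17, plus strand, 56303321 to 56323486) had best scores of 1.169, 1.026 and 0.911 in leptonema/zygonema, pachynema and diplonema. It was the highest of the 8 genes in leptonema/zygonema, at percentile 69.3, and stood at 49.5 in pachynema and 58.8 in diplonema. In all 3 substages the starts at 56304313 (Uhrf1-202), 56304348 (Uhrf1-204) and 56304407 (Uhrf1-207) were inside a peak. In leptonema/zygonema this was a single peak of 1040 bp, the widest of all the peaks of these genes, while pachynema had adjoining peaks of 650 and 490 bp with scores of 1.019 and 1.026. The starts of Uhrf1-201 and Uhrf1-203, up to 992 bp upstream, were outside every peak, although a diplonema peak from 56303421 to 56303990 (score 0.446) began 21 bp from the latter.

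Among the genes of de novo methylation, Dnmt3b had a peak over the starts of all its complete proteins throughout, while no start of Dnmt3a or Dnmt3l was covered in diplonema, and their highest-scoring leptonema/zygonema and pachynema peaks near a start lay over internal starts. Dnmt3b (ENSMUSG00000027478.15, chromosome 2, plus strand, 153649450 to 153687730) had 4 start positions between 153649450 and 153649617, and they serve all 10 of its transcripts that encode a complete protein. All 4 lay inside a peak in each list, from 153649081 to 153649860 in leptonema/zygonema (score 1.059), from 153649211 to 153649650 in pachynema (score 0.872) and from 153649121 to 153649720 in diplonema (score 0.881). The best proximal scores ranked at percentiles 51.5, 36.9 and 55.3, and in pachynema the best one, 0.897, belonged to a neighbouring peak without a start. Pachynema had 4 peaks in a row here, from 153648641 to 153650640, where leptonema/zygonema and diplonema had 2. The antisense gene Dnmt3bos begins within 1000 bp of these peaks, apart from the farthest upstream one in pachynema, and dREG peaks carry no strand, so the contribution of each gene cannot be told apart.

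**Figure D2:**
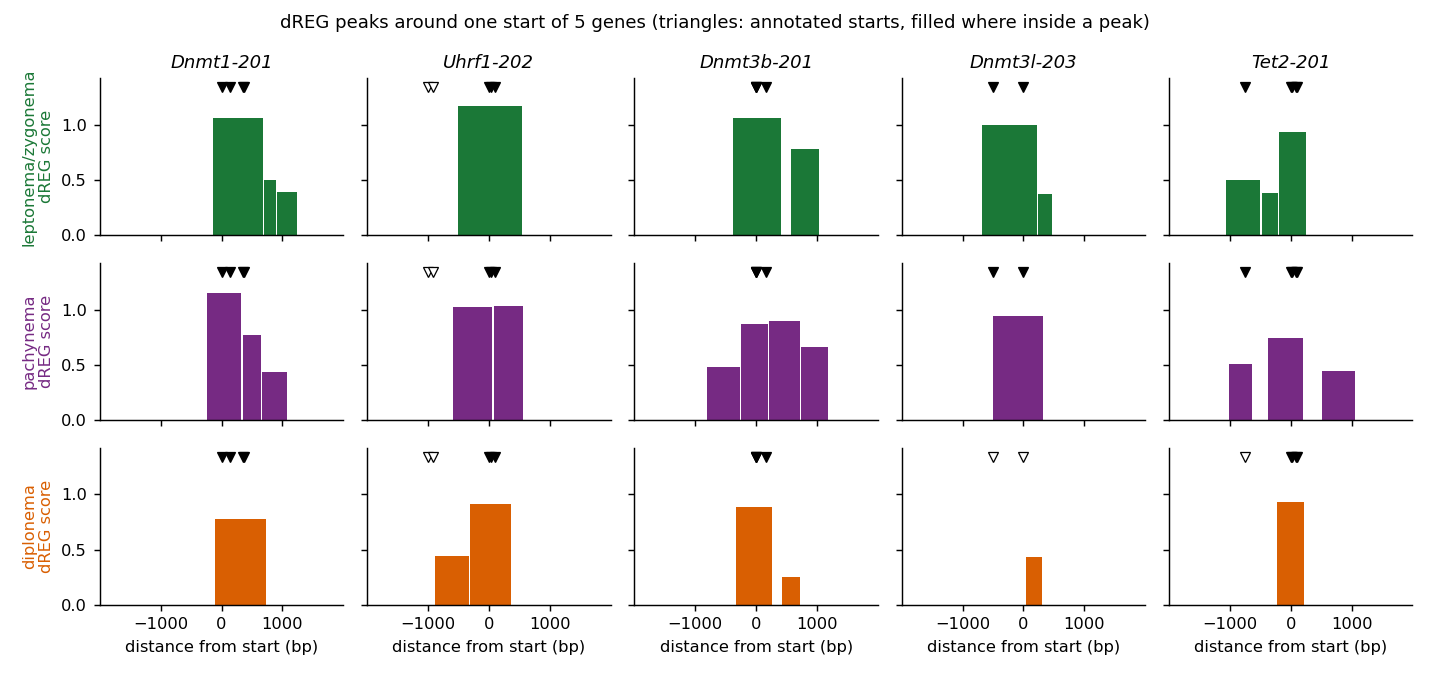
dREG peaks within 2000 bp of a start of Dnmt1, Uhrf1, Dnmt3b, Dnmt3l and Tet2 in the 3 substages (rows); each bar spans a peak on the horizontal axis (bp, positive is downstream) and its height is the dREG score, and triangles are annotated starts, filled where they lie inside a peak of that substage. Dnmt1, Uhrf1, Dnmt3b and Tet2 keep filled triangles in diplonema, whereas the only Dnmt3l peak there (score 0.434) begins 36 bp beyond the start.

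Dnmt3a (ENSMUSG00000020661.15, chromosome 12, plus strand, 3806007 to 3914443) has 18 annotated starts, the most of the 8 genes, and 4 of them lay inside a peak in leptonema/zygonema and 5 in pachynema, against 0 in diplonema. The peaks less than 1000 bp from a start fell at 3 places. The strongest of these lay deep inside the gene, in intron 6 of Dnmt3a-201, over the starts of Dnmt3a-209 (3894824) and Dnmt3a-217 (3894869). It ran from 3894341 to 3895110 in leptonema/zygonema (score 0.855) and from 3894461 to 3895000 in pachynema (score 0.758), and diplonema had no peak there. Both transcripts have an incomplete coding sequence in the annotation, and they begin 87794 and 87839 bp downstream of the start of Dnmt3a-201.

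At the 5′ end the peaks were weaker. The leptonema/zygonema peak from 3806061 to 3806690 (score 0.433) and the pachynema peak from 3806271 to 3806680 (score 0.46) covered the starts of Dnmt3a-202 and Dnmt3a-206, and a pachynema peak from 3805921 to 3806250 (score 0.292) covered that of Dnmt3a-212. The starts of the long protein of 908 residues, at 3807030 (Dnmt3a-201) and 3807160 (Dnmt3a-218), lay 340 and 470 bp beyond the peak in leptonema/zygonema and 350 and 480 bp beyond it in pachynema. In diplonema the nearest edge to them was 8301 and 8171 bp away.

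The remaining promoter of interest is that of the shorter DNMT3A protein of 689 residues, which lacks the N-terminal part and is the form known from germ cells and embryonic stem cells. Its starts, 3891728 (Dnmt3a-205) and 3891744 (Dnmt3a-203), were outside every peak. The nearest edge to that of Dnmt3a-205 was 2613 bp away in leptonema/zygonema and 2733 bp in pachynema. In diplonema a peak from 3891211 to 3891430 ended 298 bp upstream of it, but its score of 0.302 (deposited p-value 0.0377) was at percentile 1.85 of the genes in that list. This was the only proximal peak of Dnmt3a in diplonema. In the other substages Dnmt3a stood at percentile 31.2 in leptonema/zygonema and 26.5 in pachynema.

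**Figure D3:**
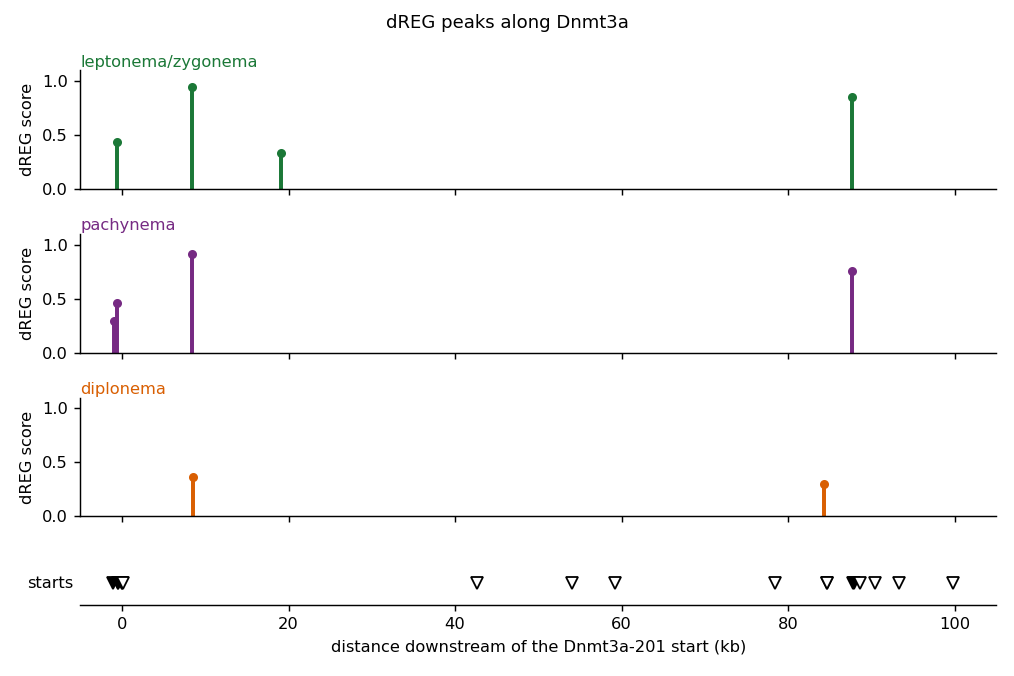
dREG peaks along Dnmt3a in the 3 substages; the horizontal axis is the distance in kb downstream of the Dnmt3a-201 start, each stem stands at the middle of a peak with the dREG score as its height, and triangles are annotated starts, filled where inside a peak in at least 1 substage. The stems over the filled internal starts (0.855 and 0.758) are present in leptonema/zygonema and pachynema and absent in diplonema, and the intron 1 stem is present in all 3, with scores of 0.947, 0.911 and 0.367.

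Dnmt3l (ENSMUSG00000000730.13, chromosome 10, plus strand, 78041947 to 78063622) showed no peak at the starts of its full protein of 421 residues, which are 78042287 (Dnmt3l-205), 78049842 (Dnmt3l-201) and 78049959 (Dnmt3l-208). Its peaks lay over exon 9 of Dnmt3l-201 and the introns on both sides. Transcripts that encode 126 residues begin there (78055335, 5493 bp downstream of the Dnmt3l-201 start), and Dnmt3l-207, a retained-intron transcript, begins nearby (78054835). Short Dnmt3l transcripts of this kind are known from the adult testis. The peak ran from 78054651 to 78055550 in leptonema/zygonema (score 1.004, percentile 44.7) and from 78054831 to 78055650 in pachynema (score 0.939, percentile 40.8), and it held both starts. In diplonema a peak from 78055371 to 78055640 (score 0.434, percentile 12.3) began 36 bp downstream of 78055335 and held no start, though widening every peak by 50 bp on each side brought 78055335 inside it.

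The erasers had a different pattern for each gene. Tet3 (ENSMUSG00000034832.15, chromosome 6, minus strand, 83362373 to 83459084) had its peaks at both ends of a 14717 bp stretch that separates the start of Tet3-203 (83456392, 1803 residues, the form with a CXXC domain) from the start of Tet3-202 (83441675, 1668 residues), inside intron 2 of Tet3-203. In leptonema/zygonema the peaks were at the upstream start alone. There were 4 in a row from 83455741 to 83457400, with scores of 0.878, 0.863, 0.762 and 0.61, and the one with 0.863 held the start of Tet3-203.

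In pachynema the upstream start was still inside a peak, with a score of 0.702, and a peak from 83441421 to 83441910 with a score of 0.982 lay over the downstream starts at 83441632, 83441675 and 83441678. In diplonema the downstream peak remained, from 83441511 to 83441880 with a score of 0.762, and it covered the same 3 starts. The upstream start was then outside, 109 bp from a peak with a score of 0.387. The downstream site had no leptonema/zygonema peak within 1000 bp. Within each list, the higher of the Tet3 peaks was therefore upstream in leptonema/zygonema and downstream in pachynema and diplonema, and the gene's percentile was 33.0, 44.9 and 41.9.

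The long noncoding RNA B230319C09Rik is annotated on the other strand, and its starts at 83441755, 83441810 and 83441812 lie within the downstream peak of pachynema and of diplonema. Since dREG peaks have no strand, initiation toward Tet3 and toward B230319C09Rik cannot be told apart here. The start of Tet3-204, at 83459084, was outside every peak.

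**Figure D4:**
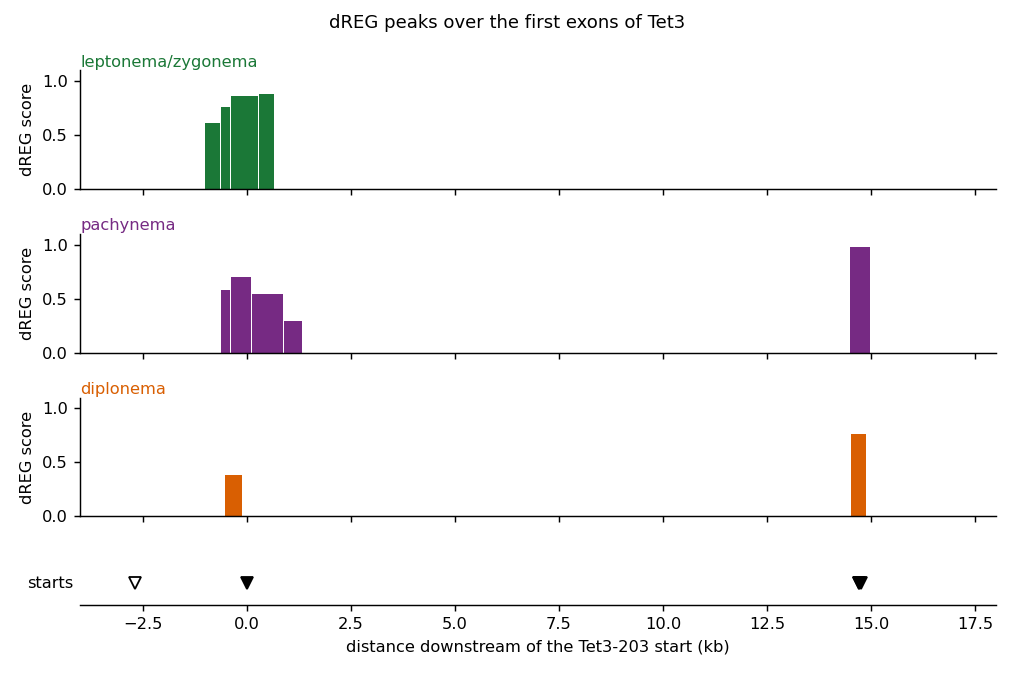
dREG peaks at the upstream and downstream starts of Tet3 in the 3 substages; the horizontal axis is the distance in kb downstream of the Tet3-203 start, each bar spans a peak and its height is the dREG score, and triangles are annotated starts, filled where inside a peak in at least 1 substage. The downstream bar is absent in leptonema/zygonema and reaches 0.982 in pachynema and 0.762 in diplonema, where the upstream bar is lower, at 0.387.

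Tet2 (ENSMUSG00000040943.12, chromosome 3, minus strand, 133463679 to 133545139) had a peak over the starts of its complete proteins in all 3 substages. The peak ran from 133544141 to 133544580 in leptonema/zygonema (score 0.934), from 133544181 to 133544760 in pachynema (score 0.739) and from 133544171 to 133544620 in diplonema (score 0.928). It held 4 starts, among them those of Tet2-201 (133544390, 1912 residues) and Tet2-204 (133544368, 1920 residues). The percentile was 37.7 in leptonema/zygonema and 25.4 in pachynema, the lowest of the 7 genes there, and 60.9 in diplonema, the highest. The upstream start of Tet2-205 (133545139) was inside a peak in leptonema/zygonema (score 0.501) and pachynema (score 0.508) and in none in diplonema. The antisense gene Gm42567 starts (133545097) inside both Tet2-205 peaks and 517, 337 and 477 bp from the peaks over Tet2-201 in leptonema/zygonema, pachynema and diplonema, so that the contribution of each gene cannot be told apart here either. The other 5 starts, inside the gene, were never covered.

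Tet1 (ENSMUSG00000047146.17, chromosome 10, minus strand, 62804570 to 62908996) had no peak within 1000 bp of any of its 10 starts, and this includes the starts of both complete proteins, Tet1-206 (62899118, 2039 residues) and Tet1-201 (62880014, 2007 residues). The peak nearest to any Tet1 start was 11125 bp away in leptonema/zygonema, 10925 bp in pachynema and 10845 bp in diplonema. The gene was not without initiation signal, since intron 6 of Tet1-206 held a peak in every list. It ran from 62830711 to 62831210 in leptonema/zygonema (score 1.321), from 62830731 to 62831230 in pachynema (score 1.228) and from 62830781 to 62831190 in diplonema (score 0.381).

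That intronic peak was among the highest in the first pair of lists. Its percentile among all peaks was 97.8 in leptonema/zygonema, with 1581 peaks scoring higher, and 95.5 in pachynema, with 3068 higher, but 25.2 in diplonema. No proximal peak of the other 7 genes scored as high in leptonema/zygonema or pachynema. The site was 16170 bp from the nearest annotated Tet1 start and 28784 bp from the nearest start of another gene, Gm48353, in leptonema/zygonema. Whether it drives a transcript of Tet1 was not tested. Among the 8735 genes without a proximal peak in leptonema/zygonema, 1650 had a gene-body peak and 134 had one that scored at least as high. The same counts were 8666, 1516 and 132 in pachynema, and 10610, 1294 and 1064 in diplonema.

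**Figure D5:**
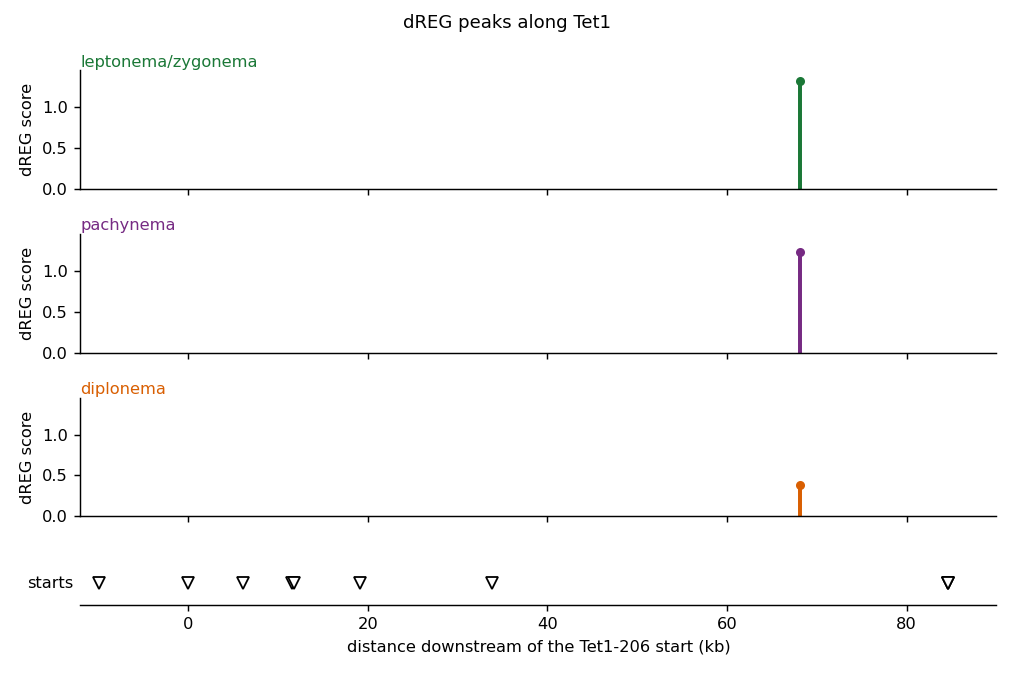
dREG peaks along Tet1 in the 3 substages; the horizontal axis is the distance in kb downstream of the Tet1-206 start, each stem stands at the middle of a peak with the dREG score as its height, and triangles are annotated starts, all open because none lay inside a peak. The intron 6 stem has scores of 1.321, 1.228 and 0.381 in leptonema/zygonema, pachynema and diplonema.

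Tet1 and Dnmt3a were the only 2 of the 8 genes with a peak inside the gene and at least 1000 bp from all of their own starts. Such a gene-body peak was found in 28.6% of protein-coding genes in leptonema/zygonema and 26.9% in pachynema, against 15.8% in diplonema. In Dnmt3a it lay in intron 1 of Dnmt3a-201, from 3815211 to 3815710 in leptonema/zygonema (score 0.947), from 3815141 to 3815720 in pachynema (score 0.911) and from 3815331 to 3815740 in diplonema (score 0.367). Its percentile among all peaks of the list was 77.3, 77.9 and 22.2 in that order, and in each list it scored higher than every peak near a Dnmt3a start. A leptonema/zygonema peak from 3825881 to 3826260 (score 0.334) lay farther into the same intron.

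Starts whose calls differed between the lists were counted over all 8 genes. A total of 8 of 69 starts (11.6%) lay inside a peak in leptonema/zygonema and pachynema but not in diplonema, namely 4 of Dnmt3a, 2 of Dnmt3l, 1 of Tet2 and 1 of Tet3. Of all annotated starts of protein-coding genes, 6.0% had this pattern. With lists of equal size, the starts of Dnmt3a-202, Dnmt3a-206 and Tet2-205 dropped out, which left 5 of 69 (7.25%) against 3.06% of all starts, and at a score of at least 0.5 it was 6 of 69 (8.7%) against 7.09%. The opposite pattern, inside a peak in pachynema and diplonema but not in leptonema/zygonema, was shown by 3 of 69 starts (4.35%), against 1.44% of all starts, or 2.31% with lists of equal size. These 3 are neighbouring starts of Tet3 under 1 peak, and the 8 lie under 5 TREs, so they are not independent observations.

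Near the limit of 1000 bp, the farthest peak inside was a pachynema peak of Tet3 at 882 bp (score 0.289). The nearest outside was a leptonema/zygonema peak 2021 bp from a Uhrf1 start (score 0.524), which lies within 1000 bp of a start of the neighbouring gene Arrdc5.

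The sequence under the peaks was rich in GC. Within 100 bp of the peak middle, the median GC content was 67.7% over the 17 leptonema/zygonema peaks, 63.2% over the 21 of pachynema and 70.6% over the 10 of diplonema. Over all proximal peaks the medians were 55.7%, 55.2% and 57.2%. The highest value, 83.6%, was found in pachynema, in the peaks over the starts of Dnmt3b-201 and Tet2-201. E2F matches were in 0 of 17, 3 of 21 and 2 of 10 peaks, all of them at Dnmt1 and Uhrf1, and in 1.87%, 1.84% and 1.99% of all proximal peaks. Whether a window caught these letters changed with the position of the peak middle, as the Uhrf1 match is in the sequence printed above but not in the leptonema/zygonema window. SP/KLF matches were in 11 of 17, 8 of 21 and 7 of 10 peaks (all proximal peaks, 32.8%, 31.8% and 36.6%), and MYB matches in 3 of 17, 6 of 21 and 2 of 10 (all proximal peaks, 37.1%, 37.8% and 38.2%). CCAAT matches were in 2 of 17, 3 of 21 and 3 of 10 (all proximal peaks, 23.9%, 23.8% and 24.3%). A TATA match was found once, in a pachynema peak of Dnmt3b that holds the start of Dnmt3bos but none of Dnmt3b (all proximal peaks, 5.96%, 6.05% and 5.55%). No peak held a CRE (all proximal peaks, 1.43%, 1.39% and 1.74%). Peaks of the 3 lists overlap at the same sites, so these counts share sequence.

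Other genes of the methylation pathway, together with 1 tRNA methyltransferase gene, were followed from a list of 40. A proximal peak was called for 36 of them in leptonema/zygonema and 36 in pachynema, against 32 in diplonema, and for 32 in all 3. Their median percentile was 59.9, 56.2 and 56.1. Dnmt3c, a rodent methyltransferase of fetal male germ cells, and Dppa3, which protects methylation in the egg and early embryo, had no peak in any list.

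Every other listed gene with a missing call lacked one in diplonema, the shortest list. Neil1, a DNA glycosylase, had a peak (score 0.462) in leptonema/zygonema alone, and Neil2, of the same family, had none in diplonema. Cdca7l, a relative of the HELLS partner CDCA7, and Zbtb4, a reader of methylated CpG, also had none in diplonema. Cxxc4, a CXXC-domain protein that binds unmethylated CpG, had a peak in pachynema alone (score 0.475). The highest pachynema scores of the list belonged to Xrcc1 (1.383), a scaffold of base excision repair, Uhrf2 (1.307), the paralog of Uhrf1, and Parp1 (1.307), which senses DNA breaks. Uhrf2 scored 1.226 in leptonema/zygonema and 1.287 in diplonema, above Uhrf1 in every list.

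For each gene the pathway gene with the most alike percentiles was found by the absolute differences summed over the 3 lists, with a gene that has no proximal peak in a list set to percentile 0 there. Tet3 was closest to Apex1, with a sum of 4.07 percentile points, and Dnmt3a to Kmt2a, with 10.4. The others were farther from their closest gene: Dnmt3b from Nsd1 by 17.6, Dnmt3l from Neil2 by 25.3 (Neil2 has no diplonema peak and counts as 0 there), Uhrf1 from Zfp57 by 26.8, Dnmt1 from Kdm2a by 29.1 and Tet2 from Tdg by 36.2.

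Markers of the expected cells and of others were read from the same lists. All 10 genes listed for leptonema/zygonema, such as Rec8, Spo11 and Prdm9, had a proximal peak there, and 9 of 10 listed for pachynema and diplonema had one in both of those lists, the exception being Aurkc, which had none in any. The calls did not separate the substages, since the leptonema/zygonema genes also had peaks in 10 of 10 cases in pachynema and 9 of 10 in diplonema, and the pachynema and diplonema genes in 9 of 10 in leptonema/zygonema. Spermatid genes had peaks in 9 of 10 cases in every list, Tnp2 being the exception, so these calls do not separate spermatids from spermatocytes. Spermatogonial genes had peaks in 6, 7 and 3 of 10 cases, and Gfra1, Nanos2 and Nanos3 had none. Of 11 genes of Sertoli, Leydig and peritubular cells, 1 had a peak in leptonema/zygonema (Sox9, score 0.385), 4 in pachynema and 2 in diplonema, and Amh, Rhox5, Cyp17a1, Insl3, Star, Acta2 and Myh11 had none. None of 5 blood genes had a peak. Somatic markers were thus called most often in pachynema, where the listed genes also had the most covered starts, and the part of other cells in the peaks described here was not tested.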

How the data were processed

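The authors removed duplicate reads, trimmed adapters with cutadapt, mapped reads with BWA to mm10 and called peaks with dREG (default settings, version not given in the sources used here). For each substage 1 list was deposited, called on 4 pooled libraries. The deposited dREG score has no fixed range, and the deposited p-value is under 0.05 for all peaks. Deposited peak starts were raised by 1 to give 1-based positions, with no other change. A further deposited column, a position within the peak, was not used.

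Distances were measured to every TSS of GENCODE M21 with Python 3.11.15, numpy 2.4.6 and pandas 2.3.3. A TSS was covered when it lay within a peak. Percentiles used protein-coding genes with a proximal peak. Gene names, lists and motifs were chosen with earlier results of these data known. Named were the 8 genes, pathway genes without a peak in at least 1 list, the 3 with the highest pachynema score, markers missing from their own substage, neighbouring genes with a start near a peak, and the most alike genes. A listed pathway gene is not reported here. Steps were tested on simulated data, with 0 wrong distances in 2000, 0 wrong pairs in 1338, 0 wrong percentiles in 1600 and 0 wrong merges in 4000. RefSeq windows matched all 8 genes. Alternatives were a score of at least 0.5, a p-value of at most 0.01, lists of equal size, an edge under 500 bp, distance from the peak middle, protein-coding transcripts only, RefSeq TSSs, peaks widened by 50 bp and merging up to 100 bp apart. No test was made, because each substage has 1 pooled list.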

Additional observations from a re-analysis of the deposited data

How the results depend on the processing

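Counts of genes with a peak, peaks, covered starts and merged TREs stayed within 1.5 times under 72 of 75 combinations. The exceptions were the number of peaks in leptonema/zygonema, 11 instead of 17 with lists of equal size, and, at a score of at least 0.5, the diplonema peaks (5 instead of 10) and diplonema TREs (5 instead of 8); Dnmt3a and Dnmt3l then had no diplonema peak, which left 5 of 8 genes with one, as at a p-value of at most 0.01. Both filters remove the weak diplonema peaks by construction. The median percentile (44.7, 40.8 and 43.7 in leptonema/zygonema, pachynema and diplonema) became 38.5, 33.4 and 45.7 at a score of at least 0.5, 43.0, 38.9 and 53.2 at a p-value of at most 0.01, and 36.9 and 32.6 in leptonema/zygonema and pachynema with lists of equal size. The percentiles of single genes left a binomial interval, set by the number of genes ranked, under 52 of 122 combinations, all with these 3 filters. This interval only sets a cutoff and does not measure the error of a single gene's rank. Percentiles that moved by over 1.5 times were Tet2 in pachynema, 16.1 at a score of at least 0.5 and 15.1 with lists of equal size instead of 25.4, and Dnmt3a in pachynema, 17.4 and 16.4 instead of 26.5. The calls over the Tet3, Dnmt3l and internal Dnmt3a starts were the same under these 3 filters, and that of Tet1 intron 6 was lost in diplonema at a score of at least 0.5. Peaks widened by 50 bp covered 20 diplonema starts instead of 18, the added ones being 78055335 of Dnmt3l and 56303400 of Uhrf1, so that Dnmt3l then had a covered start in diplonema. The 5′ Dnmt3a start at Dnmt3a-202 was in no peak at a score of at least 0.5 or with lists of equal size. No paired analysis was possible because libraries were pooled before peaks were called, and no replicate could be left out. The lists give no read depth, so a missing peak says only that none was called.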
